A study of Mus musculus with 54 samples.

Results

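The change in aortic RNA between week 4 and week 40 of a high-fat diet was examined in C57Bl/6 mice, the strain labelled C57. Arrays were chosen by the strain, week and diet code in their titles, which gave 3 arrays at week 40 and 3 at week 4, 6 of the 54 in the series. The 6 arrays at weeks 8 and 24 on the same diet served as intermediate points. Arrays of C57 on normal chow, of C57 at baseline (week 0) and of C3H/HeJ mice (C3H) on the high-fat diet were used for comparison. Each array set total RNA of mouse aorta against a common reference, total RNA of mouse embryos at embryonic day 17.5. No allele, transgene or drug is named in the labels, and sex, age and diet composition are not stated there. The titles say week 8 where another label lists week 10, and the titles were followed. The labels do not say whether replicates are different mice, so p-values refer only to the spread among arrays, which may be technical. That spread was pooled over all 54 arrays of the series and is not that of the 6 arrays compared.

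The aortic wall is built mainly from smooth muscle cells, lined by endothelium and wrapped in connective tissue, with resident immune cells. A long high-fat diet is known to raise blood lipids and, in susceptible strains, to draw lipid-loaded macrophages into the wall. C57Bl/6 mice are known for forming fatty streaks on such diets and C3H/HeJ mice for largely resisting them. In RNA of whole aorta, more cells of a type and more RNA per cell cannot be told apart. The comparison asks which array features changed over 36 weeks of this diet in the susceptible strain.

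Values are deposited log ratios, whose base and direction are not stated. They stop at exactly 2 and -2, so base 10 is likely only. A higher ratio is therefore higher in the sign of the deposited table, and the sources used here do not say whether it means more aortic RNA. Features carry numbers, not gene names. Those followed because an earlier account of these data named them carry the letters A to D, with their numbers in the plots and beside the naming rule. The platform annotation gives 1 gene symbol to 17268 features, but 953 pairs of features with the same symbol correlated at only -0.00364 in their mean ratio, so its names were not used. For the same reason the tissue label was not checked against marker genes, and no sequence could be tied to a feature.

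The SD of the log ratio over features was 0.225 to 0.292 on the 6 arrays and 0.160 to 0.304 on all 54. Across features the week 40 array numbered 3 correlated at 0.535 with week 40 number 1 and at 0.696 with week 40 number 2. Its highest correlation, 0.816, was with the week 4 array of its own number. Week 40 numbers 1 and 2 correlated at 0.864, and the 3 week 4 arrays at 0.811 to 0.849. The week 40 array numbered 3 thus stood apart within its group, and each called feature is given with and without it.

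Between week 4 and week 40, 28 of 21179 features tested changed, 25 to a higher and 3 to a lower ratio (limma, Benjamini-Hochberg adjusted p under 0.05). This is 0.132% of the features, 0.118% higher and 0.0142% lower. The differences ranged from 0.158 to 1.30 in size, with a median of 0.387, and all 28 went one way in all 3 replicate numbers. With the replicate number as a block, a term that removes what arrays of the same number share, 315 features were called, which is 1.49%. Of these 266 were higher (1.26%) and 49 lower (0.231%), and they included all 28. An unadjusted limma p under 0.05 was reached by 6.47% of features without the block and by 14.4% with it. Of all features tested, 5% had every week 40 array above every week 4 array and 2.98% every one below. Among the called features they did not overlap in 25 of 25 and 3 of 3, and among those called with the block in 204 of 266 and 34 of 49. The features were called on these same arrays, so the lack of overlap and the common sign are largely set by that choice. They are given as a description.

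The count moved with single arrays. Without the block it was 14 without week 40 replicate 3, 15 without week 4 replicate 3, 109 without week 40 replicate 1 and 135 without week 40 replicate 2. Of the 28 features, 9 were still called without week 40 replicate 3 and 8 without week 4 replicate 3. Features A, 5322, 8757, C and 21201 were called whichever of the 6 arrays was left out. With the block the count was 443 without week 40 replicate 3, where 24 of the 28 were still called, 543 without week 40 replicate 2 and 91 without week 4 replicate 2. The lean to higher ratios moved too. When arrays were scaled to one spread all 29 called features were higher, against 25 of 28 as centred, and without week 4 replicate 3 only 7 of 15 were higher. Fitted on the 6 arrays alone, limma called 0 features, with 653 at an unadjusted p under 0.05, and 0 with the block, with 1465.

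**Figure D1:**
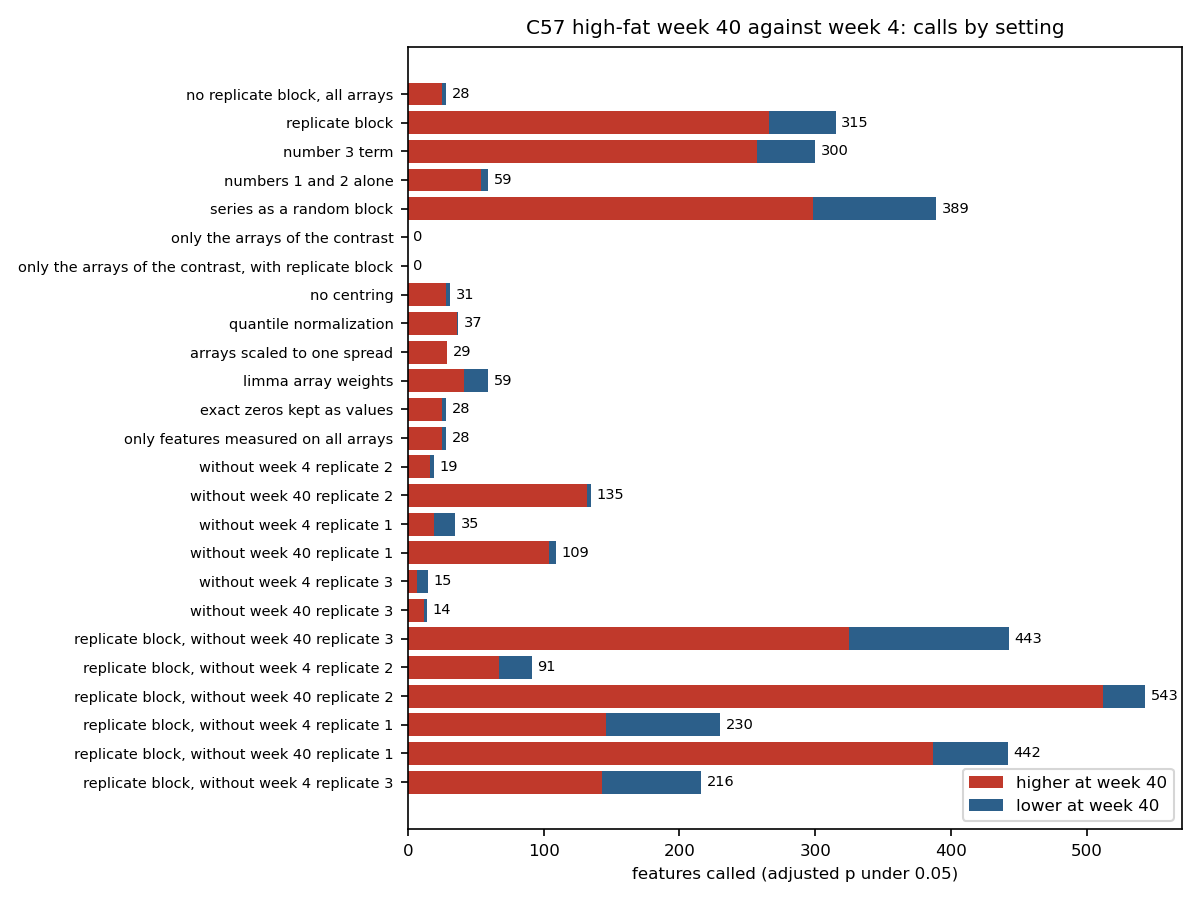
Number of features called at an adjusted p under 0.05 for week 40 against week 4 (horizontal axis) under each setting (rows), split by direction. The replicate block gives 315 calls against 28 without it, and leaving out week 40 replicate 3 gives 14 without and 443 with the block.

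Feature 5708 showed the largest difference. Its log ratio was 0.103, 1.24 and 0.105 at week 4 in numbers 1, 2 and 3, and 1.59, 1.77 and 2 at week 40. The last value lies at the cap and is a lower bound. All week 40 arrays lay above all week 4 arrays, but week 4 number 2 stood far above the other two and had no counterpart at week 8, where values were 0.0670, 0.0707 and 0.463. Week 24 read 0.289, 0.630 and 0.935. Its mean of 0.618 lay between those of weeks 4 and 40, 0.484 and 1.79, but number 2 was lower at week 24 than at week 4. The difference, at least 1.30 because of the cap (SE 0.268, limma adjusted p = 0.0249), is at least 20.1-fold if the base is 10. It was not called without week 40 replicate 3 (1.20, limma adjusted p = 0.135), nor without week 4 replicate 1 or 3. With the block it was called (limma adjusted p = 0.00856, and 0.0325 without week 40 replicate 3), but again not without week 4 replicate 1 or 3. On chow at week 40, numbers 1 and 2 read 0.425 and 0.453 and number 3 read 1.99. That last value lies close to the cap and may also be a lower bound. Only number 3 on chow lay within the range of the high-fat week 40 arrays. In C3H on the high-fat diet the same feature was 1.18 higher at week 40, which did not pass (limma adjusted p = 0.0599) and passed with the block (0.0265).

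Features 21201 and 20228 followed in size. Feature 21201 read 0.0967, -0.0100 and 0.0696 at week 4 and 0.593, 0.522 and 1.95 at week 40. The groups were far apart, and number 3 at week 40 lay far above the other two. Its SD was 0.80 at week 40 and 0.0555 at week 4 (n = 3 each). The SE rests on the spread pooled over all groups and understates the scatter at week 40. The difference of 0.97 (SE 0.162, limma adjusted p = 0.00291) fell to 0.505 without week 40 replicate 3 and was still called (limma adjusted p = 0.00111). Weeks 8 and 24 stayed at 0.0718 to 0.257, so most of the difference lay after week 24. Feature 20228 read 0.0545, 0.172 and -0.146 at week 4 and 0.769, 0.715 and 1.21 at week 40, a difference of 0.87 (SE 0.145, limma adjusted p = 0.00291). At week 24 it was still at 0.116, 0.144 and 0.159. The baseline array numbered 2 read 0.820 and lay among the week 40 values, while the other two baseline arrays read 0.127 and 0.158. Without week 40 replicate 3 feature 20228 differed by 0.715 and narrowly missed the threshold (limma adjusted p = 0.0525).

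**Figure D2:**
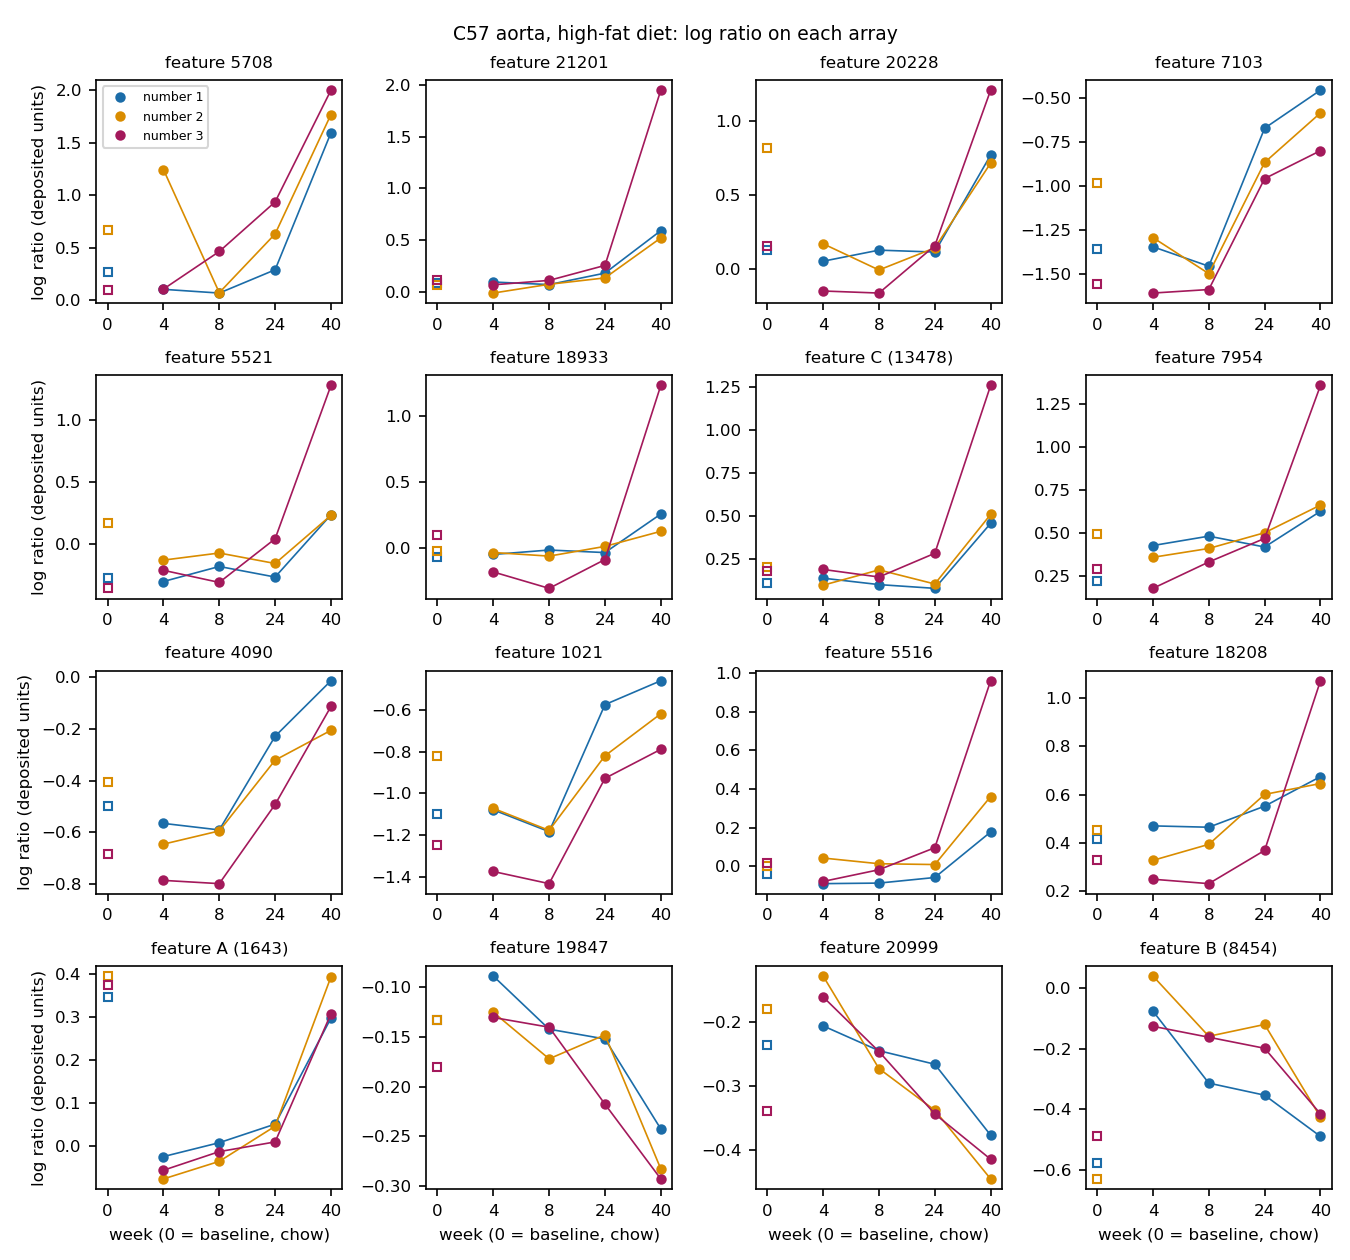
Log ratio (vertical axis, deposited units) of 16 called features (the 12 with the largest positive differences, feature A and the 3 lower ones) on each C57 array at weeks 4, 8, 24 and 40 on the high-fat diet, with lines joining arrays of the same number and open squares for the baseline chow arrays; weeks are evenly spaced, not to scale. Features 21201, C and 18933 stay low to week 24 and are highest in number 3 at week 40, while features 7103, 4090 and 1021 are higher at week 24 already and features B, 20999 and 19847 are lower at week 40.

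Most of the higher features were highest by far in number 3 at week 40. In 20 of the 25 the week 40 minus week 4 difference was largest in number 3, and in 15 it was over 2 times the mean of numbers 1 and 2. The median differences were 0.275, 0.305 and 0.626 in numbers 1, 2 and 3. Over all tested features on the higher side, number 3 was largest in 3550 of 11315 and over 2 times that mean in 3597, with medians of 0.0634, 0.0613 and 0.0319.

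Feature 18933 was the clearest case. It read -0.0481, -0.0334 and -0.181 at week 4 and 0.258, 0.127 and 1.23 at week 40. Numbers 1 and 2 differed by 0.306 and 0.160 and number 3 by 1.41. The SD was 0.60 at week 40 and 0.081 at week 4 (n = 3 each), so the pooled SE understates the scatter at week 40 here too. The mean difference was 0.63 (SE 0.135, limma adjusted p = 0.0366), and without week 40 replicate 3 it was 0.280 (limma adjusted p = 0.244). Feature 7954 behaved alike, with week 40 values of 0.626, 0.662 and 1.36 against 0.176 to 0.426 at week 4, and differed by 0.324 without that array (limma adjusted p = 0.247). Feature 5521 read 0.234, 0.230 and 1.28 at week 40 and -0.304, -0.131 and -0.213 at week 4, a difference of 0.80 that was 0.448 without that array (limma adjusted p = 0.211). Together with feature 3733, these were the 4 features lost when that array was left out of the fit with the block.

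Features 5516, 19111, 18208 and 13964 had the same shape at a smaller size. Feature 5516 read 0.178, 0.361 and 0.960 at week 40 against -0.0893 to 0.0432 at week 4. Feature 19111 read 0.0407, 0.102 and 0.666 against -0.149 to -0.104. Features 18208 and 13964 differed by 0.45 and 0.36 (SE 0.0973 and 0.0720). Without week 40 replicate 3 these 4 features differed by 0.191 to 0.311 and none was called without the block, while with the block all 4 were (limma adjusted p 0.0129 to 0.0417). Feature C read 0.458, 0.510 and 1.26 at week 40 and 0.0989 to 0.190 at week 4. Its difference of 0.60 (SE 0.0995, limma adjusted p = 0.00291) became 0.341 without the array and was still called (limma adjusted p = 0.0148).

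**Figure D3:**
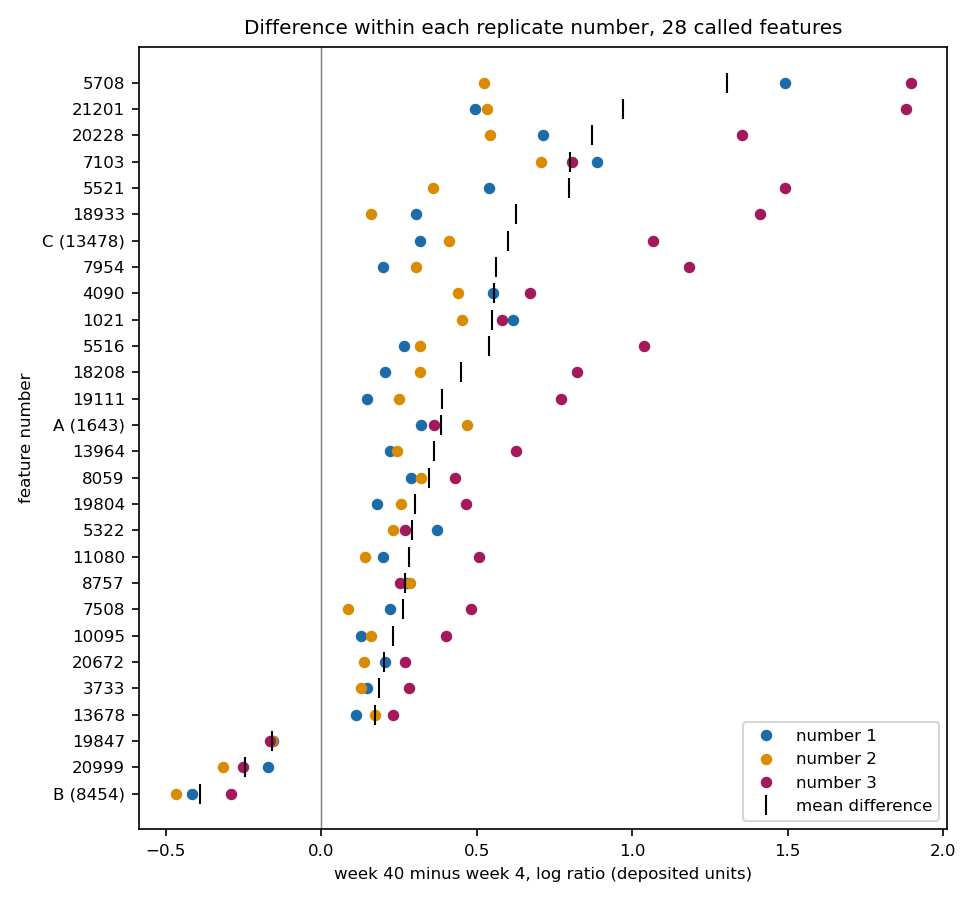
Week 40 minus week 4 difference in log ratio (horizontal axis, deposited units) within each replicate number for the 28 called features (rows, by size), with the mean as a bar. Number 3 lies to the right of the others in 20 of the 25 higher features, and in features 7103, 1021, A and 8757 the 3 numbers lie close together.

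Another set changed by similar amounts in all 3 numbers. Feature 7103 had strongly negative ratios, -1.35, -1.29 and -1.61 at week 4, and read -0.458, -0.587 and -0.801 at week 40. The groups did not overlap, and the difference was 0.887, 0.706 and 0.806 in numbers 1 to 3. The mean was 0.80 (SE 0.165, limma adjusted p = 0.0249, and 1.83e-05 with the block). Week 24 stood at -0.674, -0.867 and -0.959, already well above week 8 at -1.46, -1.50 and -1.59. Feature 4090 took the same course, from -0.565, -0.646 and -0.786 at week 4 through -0.229, -0.321 and -0.492 at week 24 to -0.0141, -0.206 and -0.114 at week 40. Its difference was 0.55 (SE 0.108, limma adjusted p = 0.0162), and with the block it had the smallest adjusted p of the named features (limma adjusted p = 3.35e-09). Feature 1021 read -1.08, -1.07 and -1.37 at week 4, -0.576, -0.820 and -0.928 at week 24 and -0.462, -0.620 and -0.789 at week 40, a difference of 0.55 (SE 0.116, limma adjusted p = 0.0310). In each of these 3 features number 3 was the lowest array at weeks 4 and 24, and the step between weeks showed in every number.

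Without week 40 replicate 3, features 7103 and 1021 differed by 0.893 and 0.633 and were called, and feature 4090 differed by 0.556 and was not (limma adjusted p = 0.0654). On chow over the same interval the 3 features differed by 0.160, 0.0974 and 0.140, and none was called. In C3H on the high-fat diet they differed by 0.350, 0.181 and 0.0937, and none was called. The chow arrays included those with the smallest SDs over features in the series, 0.160 and 0.174. Neither chow nor C3H shares arrays with the C57 high-fat comparison. The differences between these changes were 0.639, 0.457 and 0.409 for diet and did not pass the limma interaction test. Feature 7103 and feature 1021 lost their calls without week 40 replicate 1, and both together with 4090 without week 4 replicate 3. None of the 3 was called with arrays scaled to one spread, and feature 1021 was not called with quantile normalization.

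Features 5322, 8757 and 8059 were also even across numbers; features 5322 and 8059 lie outside the naming rule and were picked after their values were seen. Feature 8757 read -0.0197, -0.0612 and 0.0126 at week 4 and 0.255, 0.223 and 0.267 at week 40, with the spread within each week far below the difference of 0.27 (SE 0.0468, limma adjusted p = 0.00353). At week 40 on chow it read -0.0636, 0.0453 and -0.0479, near its high-fat week 4 level. Feature 5322 read -0.0746, -0.0544 and -0.0586 at week 4 and 0.298, 0.178 and 0.211 at week 40. Its week 8 arrays, at 0.138, 0.116 and 0.102, already lay above week 4 without passing the test. All 3 were called without week 40 replicate 3, at differences of 0.262 to 0.337. Of the other called features outside the naming rule, 3733, 7508, 10095, 11080, 13678, 19804 and 20672 differed by 0.173 to 0.301. Without week 40 replicate 3 these 7 differed by 0.134 to 0.208 and none was called (limma adjusted p 0.0984 to 0.247), while with the block all but 3733 were. Feature D, followed because an earlier account of these data named it, differed by 0.31 (SE 0.0763) and was called with the block only (limma adjusted p = 0.0766 without and 0.0164 with it).

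Features A and B differed from most of the other called features in that week 4, not week 40, was farther from baseline. This held for 3 of the 25 higher features, A among them, for 1 of the 3 lower, B, and for 33 of the 49 lower with the block. Over all tested features it held for 37.3% on the higher and 47.6% on the lower side. Feature A read -0.0237, -0.0757 and -0.0554 at week 4 on the high-fat diet and 0.298, 0.394 and 0.309 at week 40. The baseline arrays read 0.349, 0.396 and 0.374, so week 40 lay near baseline and week 4 far below it. Weeks 8 and 24 stayed low, at -0.0348 to 0.0518. The difference was 0.39 (SE 0.0615, limma adjusted p = 0.00291) and was called in 22 of 24 alternatives, all but the fits on the 6 arrays alone. Feature B was lower at week 40, at -0.0758, 0.0401 and -0.126 at week 4 and -0.490, -0.426 and -0.415 at week 40, with a baseline of -0.577, -0.630 and -0.489. Its weeks 8 and 24 lay between, at -0.314, -0.159 and -0.162 and at -0.354, -0.120 and -0.199. It differed by -0.39 (SE 0.0708, limma adjusted p = 0.00575). It was not called with quantile normalization (limma adjusted p = 0.123), with arrays scaled to one spread (0.110) or without week 4 replicate 2 (0.0808). Without week 40 replicate 3 features A and B differed by 0.398 and -0.404 and were still called (limma adjusted p = 0.00752 and 0.0287).

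These were also the only features whose change differed between the diets in the limma interaction test, 2 of 21179 or 0.00944%, with 687 at an unadjusted p under 0.05. On chow feature A read 0.516, 0.558 and 0.250 at week 4 and 0.199, 0.207 and 0.261 at week 40. The change was thus 0.39 on the high-fat diet and -0.22 on chow (SE 0.0615 each), and the difference between them 0.60 (SE 0.0870, limma adjusted p = 0.000523). On chow feature A averaged 0.441 at week 4 (SD 0.167, n = 3), 0.114 at week 8 and 0.195 at week 24. Its chow level was thus already below that of week 4 by week 8. Week 4 number 3 on chow, the lowest of the 3, was the array with the smallest SD over features, 0.160. Without it the difference between the diets was 0.700. Feature B read -0.591, -0.806 and -0.563 at week 4 on chow and -0.488, -0.489 and -0.541 at week 40, an interaction of -0.54 (SE 0.10, limma adjusted p = 0.0407). That of feature A was called whichever of the 12 arrays was left out, with adjusted p from 3.50e-06 to 0.00797. That of feature B was lost in 9 of those 12 cases, namely each week 40 array and week 4 replicate 2 on either diet, and high-fat week 4 replicate 1. It was also lost with quantile normalization (limma adjusted p = 0.810) and with arrays scaled to one spread (0.468).

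Feature A was also the only feature whose high-fat change differed between the strains, 1 of 21179 or 0.00472%, with 1788 at an unadjusted limma p under 0.05. In C3H it averaged 0.327 ± 0.0413 (SD, n = 3) at week 4 and 0.219 ± 0.0990 (SD, n = 3) at week 40, and the interaction was 0.49 (SE 0.0870, limma adjusted p = 0.0307). It was lost without C57 week 4 replicate 2 or 3, C57 week 40 replicate 1 or 2, or C3H replicate 1 at either week, with adjusted p up to 0.163. The count of features called for strain was far from stable, at 178 without C57 week 40 replicate 3 and 473 without C3H week 40 replicate 3.

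Across all 18 groups, the levels of feature A did not follow strain or diet alone. The lowest means were those of C57 on the high-fat diet at weeks 4 and 8, -0.0516 ± 0.0262 and -0.0127 ± 0.0217 (SD, n = 3), next to C3H at baseline, 0.0204 ± 0.104 (SD, n = 3). The neighbours in this order did not differ beyond their spread. The highest were chow at week 4 in C57 and in C3H, 0.441 ± 0.167 and 0.437 ± 0.0103 (SD, n = 3), and C3H chow at week 8, 0.422 ± 0.114 (SD, n = 3). Baseline in C57 was 0.373 ± 0.0239 (SD, n = 3), so the strains stood apart at baseline and together on chow at week 4. By likeness of the 18 group means, a measure chosen after the values were seen, the nearest features were 10892 (r = 0.946), 17433 (r = 0.938) and 12418 (r = 0.904), and the most opposite was 17767 (r = -0.926). All points share the embryo reference and the same 3 replicate numbers. Feature 17433 differed by 0.40 between weeks 4 and 40 on the high-fat diet and feature 17767 by -0.41. Both were called with the block only (limma adjusted p = 0.0206 and 0.0230). In numbers 1, 2 and 3 feature 17433 differed by 0.373, 0.765 and 0.0698, so it changed little in number 3. Feature 17767 averaged 0.389 at week 4, 0.427 at week 8 and 0.375 at week 24, and was at -0.0200 at week 40, with a baseline of -0.479.

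**Figure D4:**
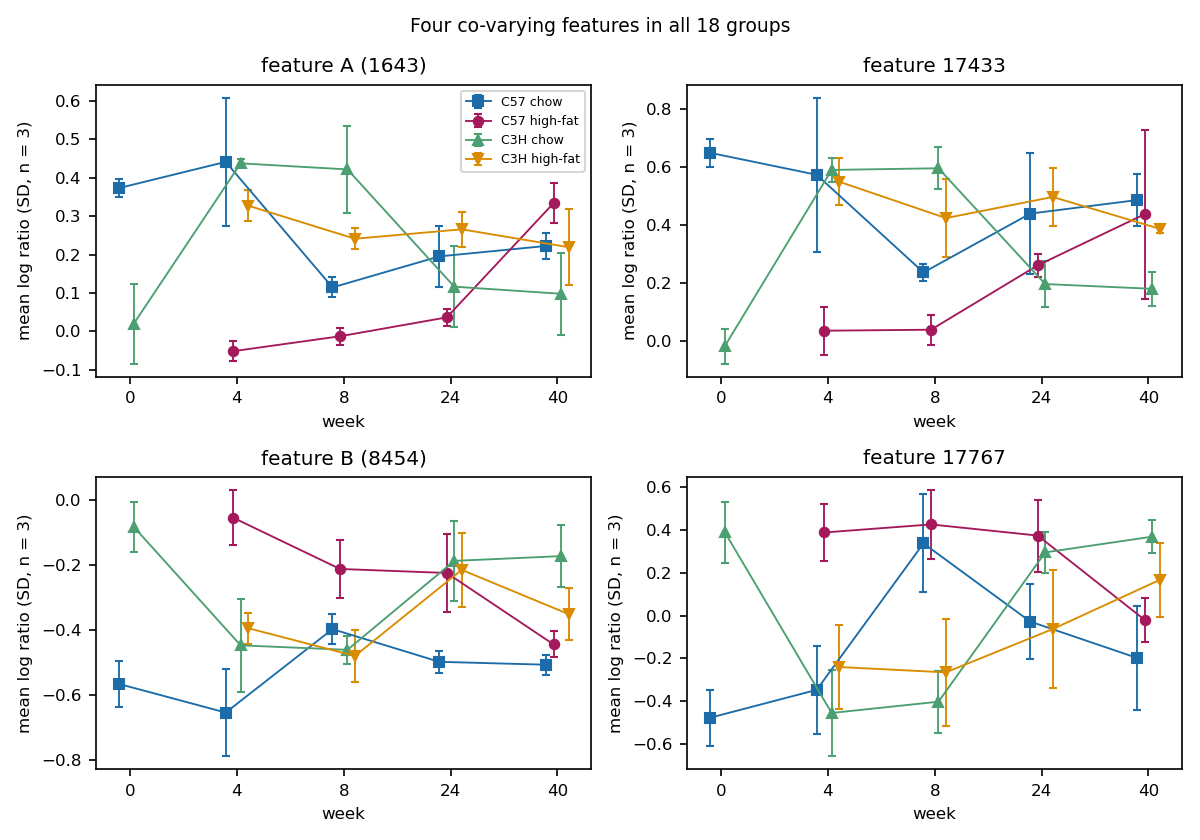
Mean log ratio (vertical axis, deposited units; bars are the SD of 3 arrays) of features A, 17433, B and 17767 in all 18 groups by week, evenly spaced, for each strain and diet. Features A and 17433 are low, and features B and 17767 high, in C57 on the high-fat diet at weeks 4 and 8 and in C3H at baseline, but not only there. In C57 on the high-fat diet at week 24, feature A is at 0.0364 and feature 17767 at 0.375. In C3H on chow at week 40, feature B is at -0.172 and feature 17767 at 0.37.

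Among the lower features, 20999 and 19847 differed by small amounts. Feature 20999 read -0.206, -0.129 and -0.161 at week 4, -0.245, -0.273 and -0.246 at week 8, -0.266, -0.337 and -0.343 at week 24 and -0.376, -0.444 and -0.414 at week 40. Each number was lower at each later week, and the week 40 arrays lay below all earlier high-fat arrays. The difference was -0.25 (SE 0.0535, limma adjusted p = 0.0369). Feature 19847 read -0.0885, -0.125 and -0.130 at week 4 and -0.243, -0.283 and -0.293 at week 40. It differed by nearly the same amount in each number, -0.154, -0.158 and -0.163, with a mean of -0.16 (SE 0.0346, limma adjusted p = 0.0370). Week 40 on chow read -0.289, -0.187 and -0.239 for this feature and overlapped with week 40 on the high-fat diet. Without week 40 replicate 3 neither was called (limma adjusted p = 0.130 and 0.148), though the differences were -0.245 and -0.148. Without the block feature 20999 kept its call only when replicate 1 of either week was left out and feature 19847 only without week 40 replicate 1, while with the block both were called whichever array was left out. Neither was called with arrays scaled to one spread.

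The larger lower differences were called with the block only, and several rested on 1 array at week 4. Feature 14974 read 1.65, 0.938 and 0.836 at week 4 and -0.0737, 0.398 and 0.735 at week 40, a difference of -0.79 (limma adjusted p = 0.0373 with the block) that was -1.73 in number 1 and -0.101 in number 3. Feature 15158 read 1.52, 0.362 and 0.142 at week 4 and 0.296, 0.292 and -0.333 at week 40, so the groups overlapped. Feature 14888 read 1.06 in number 1 at week 4 and between -0.322 and -0.0125 on the other 5 arrays. In feature 16517 number 2 at week 4 read 0.787 and the other 5 arrays -0.328 to -0.0550, and in feature 3674 number 2 read 0.833 against -0.00319 to 0.207. Week 8 in these 5 features lay at -0.297 to 0.604, below the high week 4 arrays. Feature 17278 was more even, at -0.0479, 0.0507 and -0.207 at week 4 and -0.491, -0.554 and -0.494 at week 40 (limma adjusted p = 0.0354 with the block).

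The lists called with the block were chosen on the week 4 and week 40 arrays, so their levels at those weeks, and the steps into and out of them, are partly set by that choice and are given as a description. The median ratio over the 266 higher features was 0.00380, -0.0167 and -0.0776 on week 4 arrays 1, 2 and 3, and 0.163, 0.134 and 0.228 on the week 40 arrays. At week 8 it was 0.0498, -0.0121 and -0.0649 and at week 24 0.0456, 0.0601 and -0.0309, which lie between weeks 4 and 40 in each number. The largest of the 3 steps between successive weeks was that from week 24 to week 40 in 234 of 266 and in 19 of the 25 called without the block. Over all tested features on the higher side it was so in 5506 of 11422. Number 3 had the largest difference in 181 of the 264 measured on all 6 arrays, and over 2 times the mean of the other two in 128. Over all on the higher side these were 3550 and 3597 of 11315. The baseline mean lay between those of weeks 4 and 40 in 205 of 266, against 4245 of 11422 of all on the higher side.

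The 49 lower features had medians of 0.0267, 0.206 and 0.0446 on the week 4 arrays, with number 2 above the other two. At week 8 they were -0.0630, -0.0632 and -0.0827, at week 24 -0.0581, -0.0856 and -0.125, and at week 40 -0.126, -0.163 and -0.117. The baseline arrays read -0.0804, -0.0469 and -0.140, so all week 4 medians lay above those of baseline and of the later weeks. Number 2 had the largest difference in 35 of 49, against 3829 of 9702 of all on the lower side. The largest step lay between weeks 4 and 8 in 36 of 49, and baseline lay between weeks 4 and 40 in 43. Over all on the lower side these were 4024 and 3465 of 9757. Without week 4 replicate 2 the fit with the block called 91 features in all, 67 of them higher.

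**Figure D5:**
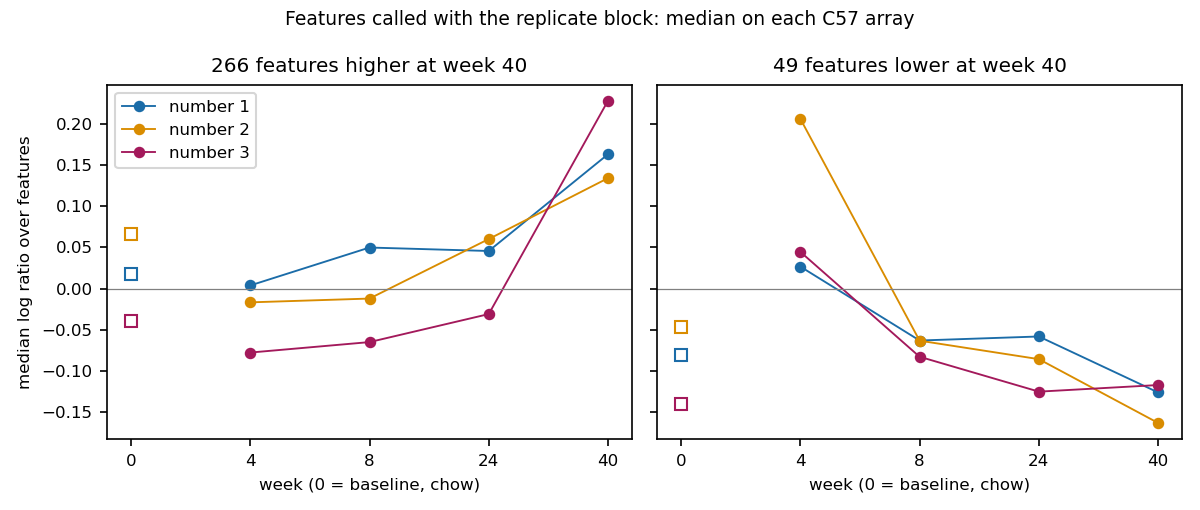
Median log ratio (vertical axis, deposited units) over the 266 features higher and the 49 lower at week 40 in the fit with the block, on each C57 array by week (evenly spaced), with lines joining arrays of the same number and open squares for baseline chow. The lists were chosen on weeks 4 and 40; the higher list reads highest at week 40, and the lower list highest at week 4 in number 2, at 0.206.

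An F test for any change over weeks 4, 8, 24 and 40 called 19 features (0.0897%) and 304 with the block (1.44%). It was led by features C and 20228 (limma adjusted p = 0.00247 each), A, 21201 and 8757 (limma adjusted p = 0.00301 each). The 19 became 10 without week 40 replicate 3, 55 without week 40 replicate 1 and 76 without week 40 replicate 2, and the 304 became 67 without week 40 replicate 3. Week 8 against week 4 gave 0 calls (0%) by limma with or without the block, with 479 and 1187 features at an unadjusted p under 0.05. Week 24 against week 4 gave 0 calls (609 at an unadjusted p under 0.05) and with the block 2 (0.00944%), features 7103 and 4090. Both comparisons share the week 4 arrays with that of week 40.

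Week 24 against week 8 uses neither week 4 nor week 40 arrays. It gave 0 calls without the block (200 at an unadjusted limma p under 0.05) and 5 with it (0.0236%), all higher. These were 7103, 4090, 1021, 11842 and 7345, and the first 3 are among the 25. Feature 11842 was 0.63 higher at week 24 (limma adjusted p = 0.00701 with the block), from -0.877, -0.899 and -1.02 at week 8 to -0.206, -0.217 and -0.481, and reached 0.0940, -0.0281 and -0.252 at week 40. Feature 7345 was 0.59 higher (limma adjusted p = 0.0124 with the block), and read 0.259, 0.242 and 0.00843 at week 24 against -0.335, -0.454 and -0.477 at week 8. All 5 were also called with the block for week 40 against week 4. On these separate arrays 22 of the 25 higher features and 219 of the 266 had the same sign (82.3%, against 64.8% of all on the higher side), with medians of 0.0661 and 0.0337. Of the 49 lower features 37 had the same sign (75.5%, against 57.2%). The arrays of a number still share that number.

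The same interval on chow gave 0 calls in C57 (limma, 240 at an unadjusted p under 0.05). Its arrays included those with the smallest SDs over features in the series, 0.160 (week 4 number 3) and 0.174 (week 40 number 1). Leaving out the first gave 1 call and leaving out the second gave 1, with 829 and 759 at an unadjusted limma p under 0.05. Of the 25 higher features 21 had the same sign on chow, with a median of 0.0763 against 0.389 on the high-fat diet. Of the 266 it was 140 (52.6%, against 38.9% of all), with a median of 0.00355. On chow, as on the high-fat diet, the difference of several leading features was largest in number 3. It was 1.92 for feature 5708, 0.670 for 20228, 0.654 for 7954, 0.509 for 21201, 0.377 for 5516 and 0.307 for 18208 in that number, against -0.153 to 0.305 in numbers 1 and 2. Numbers do not pair on chow, so these differences by number are a description. That of feature 5708 may be a lower bound, since its chow week 40 value lies close to the cap. Week 4 number 3 on chow read lowest of its group in features 5708, 20228, 7954 and 18208, but not in 21201 and 5516. Apart from features A and B, the difference between diets did not pass for any of these leading features.

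In C3H the same interval on the high-fat diet called 17 features (0.0803%), 16 of them higher, and 184 with the block (0.869%). None of the 28 was among the 17. With the block 4 of the 266 and 2 of the 49 were also called in C3H. The count of 17 became 574 without C3H week 40 replicate 3, 8 without week 40 replicate 2, 3 without week 40 replicate 1 and 1 without week 4 replicate 1 or 2. The same sign was seen in C3H for 22 of the 25, with a median of 0.0937, and for 197 of the 266 (74.1%, against 48% of all), with a median of 0.0369 against 0.203 in C57. Of the 49 lower features 27 had the same sign (55.1%, against 53.7%). The leading features in C3H in each direction, 583 and 1087, were not called in C57, and the difference between the strains did not pass the limma interaction test for either (adjusted p = 0.0733 for feature 583). Feature 583 was 0.85 higher in C3H (SE 0.136, limma adjusted p = 0.00439) and read 0.00835, 0.348 and -0.0662 at week 4 and 0.103, -0.175 and 0.130 at week 40 in C57. Feature 1087 was lower by -0.48 in C3H (SE 0.0817, limma adjusted p = 0.00659) and read -1.12, -1.11 and -0.992 at week 4 and -1.31, -1.24 and -0.962 at week 40 in C57.

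The higher features also varied together on arrays other than the 6 compared. Over the 48 other arrays, deviations from the group means correlated at 0.382 on average between pairs of the 264 features measured on all arrays, at 0.16 between pairs of the 25 and at 0.0556 between pairs of the 49, against 0.01 over all 20694. Over the means of the 16 other groups the averages were 0.291 for the 25, 0.246 for the 264 and 0.155 for the 49, against 0.00964 for all. These values describe arrays that share the replicate numbers. Those arrays also took part in the calls, through the pooled spread and, with the block, through the number term. The averages are thus partly set by how the lists were chosen. Feature 21201 had 9 features above 0.9 over the 18 group means, led by C (r = 0.978), 5521 (r = 0.944) and 13522 (r = 0.942). These correlations include the week 40 high-fat group, in which features 21201, C and 5521 were called. Feature 7103 was nearest to 21533 (r = 0.912), 1942 (r = 0.903) and 4090 (r = 0.898), and feature 21533 was itself 0.38 higher at week 40 (limma adjusted p = 0.0534, and 0.00180 with the block). The called features were spread over the array numbering, with 1.17% to 1.73% of the features called with the block in each of 10 equal ranges of the numbers. The 28 were measured on all 54 arrays, and 2 of the 266 had a missing value.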

How the data were processed

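Deposited log ratios, likely log10 values, of 21446 features on 54 two-channel arrays in 18 groups of 3 were used, as deposited by the authors. Scanner, dyes, background correction and normalization are not stated in the labels. The number of arrays limits the precision, and signal over background is unknown. The members, comparisons and features followed were chosen with earlier results of these data known.

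Exact zeros (7895, or 0.682% of values) were treated as not measured. Each array was centred on its median over the 20694 features measured on all arrays, and 21179 features with at least 2 values in every group were tested, which left out 267. Group means were fitted to all 54 arrays with limma 3.58.1 in R 4.3.3, two-sided, with Benjamini-Hochberg adjustment within each comparison and a threshold of 0.05.

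Whether numbers pair arrays was judged by correlating deviations from group means between arrays of the same number. The pairing comes from these data, not from the labels. Such correlations were 0.305 to 0.539 for week 40 against week 4 and 0.208 to 0.653 for the other C57 high-fat comparisons. They were 0.385 to 0.685 for C3H. All lay above 0.1, so results with the block stand beside these comparisons. Different numbers reached at most 0.150 for week 40 against week 4 and 0.148 for C3H. Week 24 number 2 correlated at 0.474 with week 8 number 1 and at 0.287 with week 4 number 1. Week 24 number 1 reached 0.443 and 0.208 with those arrays, so pairing is less clear for week 24. Same-number correlations were as low as -0.312 on chow and for the diet interaction and -0.372 for the strain interaction. The block gives each number a single effect over all arrays fitted, chow and both strains included. It is not a pairing within the groups compared, and its calls rest partly on arrays whose numbers do not pair.

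The rule named, for the main comparison, up to 15 features in each direction with the largest differences among those called with one sign in all 3 numbers, filled up to 10 from the fit with the block. It named up to 3 in each direction elsewhere, and 5 by the F test. Features A, B, C and D, also followed because the earlier results name them, are those numbered 1643, 8454, 13478 and 4020. Names that the rule filled in with the block for chow and the interactions were left out of the results, since numbers do not pair there.

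Alternatives were the replicate block, a term for number 3, numbers 1 and 2 alone, a random block for series of strain, diet and number, only the arrays compared, other normalizations, array weights (limma, gene by gene, since the default estimate did not converge), zeros kept, complete features and each array left out. Leaving out other arrays than week 40 replicate 3 within the fit with the block was added after the data were seen.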

Additional observations from a re-analysis of the deposited data

Results flagged for a closer look

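Changes between week 4 and week 40 that differed from those of another group, by a limma interaction test, were found in features A and B. The high-fat change of feature A in C57 exceeded its chow change by 0.604 (limma adjusted p = 0.000523), with the same sign in all 3 replicate numbers. It also exceeded the high-fat change in C3H by 0.494 (limma adjusted p = 0.0307), again with the same sign in all 3 numbers. The high-fat change of feature B in C57 differed from its chow change by -0.537 (limma adjusted p = 0.0407), with the same sign in all 3 numbers. Numbers do not pair for these interactions, and the features were called on these same arrays. The common signs are thus largely set by that choice and are given as a description.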

How the results depend on the processing

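With the replicate block, 315 features were called for week 40 against week 4, 304 for any change over high-fat weeks, 2 for week 24 against week 4, 5 for week 24 against week 8 and 184 for C3H; on chow and for the diet and strain interactions, whose numbers do not pair, it gave 2, 28 and 91. A number 3 term gave, in the same order, 300, 296, 3, 5, 159, 2, 18 and 34. Numbers 1 and 2 alone gave 59 for week 40 against week 4, 1 for week 8 and 1 for week 24 against week 4, 298 for C3H, 6 on chow, 86 for diet and 553 for strain. The series as a random block gave 389, 285 for any change, 7 for week 24 against week 4, 5 for week 24 against week 8, 361 for C3H, 6 for diet and 475 for strain. With only the arrays compared, limma called 0 for week 40 against week 4, any change, C3H, diet and strain (653, 486, 771, 380 and 901 at an unadjusted p under 0.05), and with the block 0, 7, 0, 0 and 0, and 3 for week 24 against week 8. Array weights gave 59, 212 for any change, 64 and 39 for weeks 8 and 24 against week 4, 43 for week 24 against week 8, 45 on chow, 426 for C3H, 40 for diet and 534 for strain. Quantile normalization gave 37 for week 40 against week 4, 36 of them higher, 5 for C3H and 2 for strain. Arrays scaled to one spread gave 29, all higher, and 1 for C3H, 1 for diet and 3 for strain.

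With the block, leaving out week 40 replicate 1, 2 or 3 gave 442, 543 and 443, and week 4 replicate 1, 2 or 3 gave 230, 91 and 216. With the block and without week 40 replicate 3 there were 67 for any change, 31 for diet and 765 for strain. Without the block, leaving out 1 array gave 14 to 135 for week 40 against week 4, 10 to 76 for any change, 0 to 2 for week 8 and 0 to 3 for week 24 against week 4, 0 to 7 for week 24 against week 8, 0 to 1 on chow, 1 to 574 for C3H, 1 to 3 for diet and 0 to 473 for strain. The cause of these shifts was not tested. No centring, zeros kept as values and complete features kept each count within 1.5 times. The 55 results for named features gave 1257 values under alternatives. None was reversed, 173 lost their call and 144 gained one. With 3 arrays per group and no intensities, what lies under background could not be assessed.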
